A study of Homo sapiens with 6 samples.

Results

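The claudins are described here in MKN28, a long-used line of human stomach adenocarcinoma cells, with LTBP1 RNA lowered or not. The members are the 10 genes CLDN1, CLDN2, CLDN3, CLDN4, CLDN6, CLDN7, CLDN9, CLDN12, CLDN15 and CLDN18, each found by its symbol as 1 row among the 19960 genes of the deposited table. The control group (shSCR) is MKN28 cells that stably express a scrambled short hairpin RNA plasmid, and the other group (shLTBP1) is MKN28 cells that stably express a hairpin plasmid against LTBP1, the gene of a protein that holds latent TGF-beta in the matrix. Each group has 3 libraries of total RNA, and the question is how RNA levels differ between them. Both groups grew in RPMI medium with fetal bovine serum. The labels name 1 plasmid per group and do not say whether the stable cells were clones or pools, or whether the libraries came from separate cultures, so the p-values rest on a spread among libraries that may be only technical.

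Claudins are small proteins that cross the membrane several times and polymerize into the strands of tight junctions, the seals near the apical end of the side walls of epithelial cells. Their extracellular loops set whether a junction is a barrier or lets ions through, and most end in a motif that binds the PDZ domains of the zonula occludens scaffolds. Which claudins a stomach epithelium makes changes with its state, and a stomach isoform of CLDN18 is a drug target in gastric cancer.

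LTBP1 had normalized counts of 977, 964 and 1011 in shSCR and 59.0, 66.7 and 49.0 in shLTBP1, so the labels and the targeted gene go together. The deposited values sum to between 30479879 and 30941103 per library. Pearson's r of log2 values across genes was 0.989 to 0.992 between libraries of 1 group and 0.9585 to 0.962 between groups; genes are not independent replicates. All 5 epithelial markers were expressed, among them KRT8 and CDH1, and their summed level was 307451 to 328371 in shSCR and 267214 to 291416 in shLTBP1. KRT8 and KRT18 made up most of that sum. The mean of KRT19 was 27857 in shSCR and 32509 in shLTBP1. KRT8, KRT18, CDH1 and EPCAM had lower means in shLTBP1, EPCAM at 9981 against 21679. Of 9 gastric and intestinal markers only CDX2, GAST and MUC1 had a mean of at least 10, and MUC6 and TFF2 are listed at 0 in every library. These 9 summed to 1761 to 1917 in shSCR and 3684 to 4229.5 in shLTBP1. The mean of MUC1 was 417 in shSCR and 1158 in shLTBP1, and that of GAST 36.5 and 79.5. Of 6 fibroblast markers, COL1A1 and LUM had a mean of at least 10, with a summed level of the 6 of 1095 to 1337 in shSCR and 706 to 929.9 in shLTBP1, while PDGFRB and COL3A1 were near 0. That sum is nearly all COL1A1, with means of 1213 and 805, whereas LUM is listed at 0 in every shSCR library and had a mean of 43.4 in shLTBP1. Of 5 endothelial markers VWF alone reached a mean of 10 (sums of 35.6 to 51.2 and 23.9 to 30.5), and CLDN5, the endothelial claudin, is listed at 0. The blood cell markers summed to 343 to 1317 in shSCR and 613 to 727 in shLTBP1, with PTPRC near 0. The highest sum was that of shSCR replicate 3, where the globin gene HBA1 was at 803 against 3.36 to 12.0 in the other libraries. The macrophage marker CD68 had means of 366 and 669. The mitochondrial genes held 2.35% to 2.5% of the total in shSCR and 3.2% to 3.72% in shLTBP1; the part of these differences in the results was not tested.

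Of the 10 claudins, 7 were expressed at a mean of at least 10, the minimum for testing. In shLTBP1 cells, CLDN4 and CLDN9 rose and CLDN12 and CLDN3 fell, while CLDN7, CLDN1 and CLDN15 did not pass the threshold. In bulk RNA, fewer cells that express a gene and less RNA of it per cell cannot be told apart. Differences were tested with limma on log2(value + 1), the scale of every log2 fold change here, and called at a Benjamini-Hochberg adjusted p of 0.05. Thus 4 of 7 tested claudins (57.1%) were called, 2 in each direction, where 53.1% of all 12789 tested genes were called (26.3% higher and 26.8% lower). No claudin changed by 2-fold, while 8.92% of tested genes were called with a change of at least 2-fold. The median log2 fold change of the 7 was 0.02, beside 0.004 over all tested genes, and their median absolute log2 fold change was 0.28, beside 0.26. The share of claudins called is thus close to that of genes in general.

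**Figure D1:**
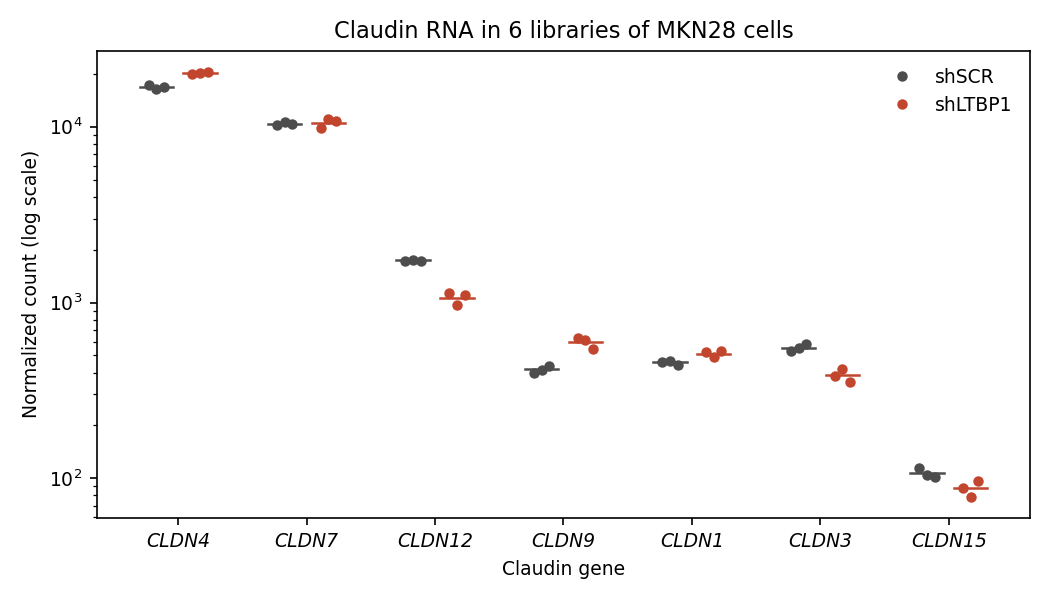
Normalized counts (log axis) of the 7 tested claudins; each point is a library, grey for shSCR and red for shLTBP1, and bars are the means of 3. The groups are apart for CLDN4, CLDN9 and CLDN1 (shLTBP1 higher) and for CLDN12, CLDN3 and CLDN15 (shLTBP1 lower), and overlap for CLDN7.

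CLDN4, a barrier-forming claudin abundant in many carcinomas and a receptor of the Clostridium perfringens enterotoxin, had the highest counts of the family. Its normalized counts were 17299.9, 16309.6 and 16785 in shSCR and 20032, 20133 and 20458 in shLTBP1. Every shLTBP1 library lay above every shSCR library. The means were 16798 ± 495 and 20208 ± 223 (SD, n = 3 each), a ratio of 1.203. The log2 fold change was 0.27 (standard error 0.04, limma adjusted p = 0.000342), and its 95% confidence interval corresponds to a rise of 13.1% to 28.0%. CLDN4 (ENSG00000189143) lies on chromosome 7, plus strand, from 73799542 to 73832693 (hg38), and its longest protein-coding transcript has 2 exons.

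CLDN3, the close relative of CLDN4 and another receptor of the enterotoxin, went the other way although the genes are neighbours. CLDN3 (ENSG00000165215) is a gene of 1 exon on the minus strand of chromosome 7 from 73768997 to 73770270, and 29271 bases separate it from CLDN4. Its normalized counts were 533, 549.6 and 580.1 in shSCR and 383, 419 and 353 in shLTBP1, with no overlap between the groups. The means fell from 554 ± 23.7 to 385 ± 32.7 (SD, n = 3 each), a log2 fold change of -0.53 (standard error 0.09, limma adjusted p = 0.000655). With trends of GC content and transcript length removed, CLDN3, whose transcript has a GC content of 69.2%, was at -0.79 (limma adjusted p = 9.82e-06). The genes around the pair moved little as a group: the median log2 fold change of the 25 tested genes on each side was 0.03 for CLDN3 and for CLDN4.

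The count of CLDN4 relative to CLDN3 shows the divergence within each library. It was 32.4, 29.7 and 28.9 in shSCR and 52.3, 48.1 and 57.9 in shLTBP1, each value being a ratio of counts and not a ratio per length. The log2 ratio differed by 0.79 between the groups. An exact two-sided permutation test gave p = 0.1, the smallest that 3 libraries against 3 allow, and 0.1 after Benjamini-Hochberg adjustment over the 3 claudin ratios computed. The pairs were chosen after the values were seen. For this pair the p was fixed by that choice, as CLDN4 was higher and CLDN3 lower in every shLTBP1 library.

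The sequence before the RefSeq start of each neighbour is shown because the genes moved in opposite directions. RefSeq windows (GRCh38.p14) of the 250 bases before the start were searched on both strands for fixed motifs. These were CACCTG (the E-box bound by Snail and ZEB repressors), GGGCGG (the GC box bound by SP factors) and TATAAA (the TATA box). Also searched were AACNNGTT (a grainyhead-like site) and TGANTCA (a loose form of the AP-1 site, with any base in the middle). RefSeq windows were matched for 9 of the 10 members; CLDN9 is the gene with no entry. CLDN3 has the window chr7:73770271-73770520 on the minus strand, with a GC content of 71.6% (median over 27305 promoters 58.0%). It holds 4 GC boxes, in capitals, and no match to the other motifs:
CLDN3: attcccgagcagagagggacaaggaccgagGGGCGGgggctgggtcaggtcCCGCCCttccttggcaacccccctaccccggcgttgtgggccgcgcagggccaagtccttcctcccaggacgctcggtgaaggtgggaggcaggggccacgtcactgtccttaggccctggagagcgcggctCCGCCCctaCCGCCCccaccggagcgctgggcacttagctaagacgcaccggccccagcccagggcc

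The window of CLDN4, chr7:73830746-73830995 on the plus strand, has a GC content of 58.8% and holds 2 matches to TGANTCA and 1 GC box. It lies inside the span of CLDN4 given above, which comes from GENCODE and begins upstream of the RefSeq start, and all 250 of its bases are in GENCODE exons of CLDN4. The distance between the neighbours given above is likewise that between the GENCODE spans. Both stretches with a match to TGANTCA are printed, with the match in capitals; the second lies nearer the start:
CLDN4 first match, chr7:73830746-73830770: ctgggctgTGATTCAgtgtctgtct
CLDN4 second match, chr7:73830825-73830851: gactggatagTGACTCAgggacccggg
A match to TGANTCA was present in 6.6% of all promoter windows and a GC box in 42.3%. The only other members with a match to TGANTCA were CLDN15 and 1 of the windows of CLDN2. These matches describe letters in a window and show no binding.

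CLDN12 had the largest change among the 7 tested claudins, although with GC content and length trends removed it was at -0.69 and CLDN3 at -0.79. It is an unusual claudin that lacks the PDZ-binding end and has been tied to calcium passage in the gut. Its normalized counts were 1718, 1756 and 1729.6 in shSCR and 1127, 963 and 1103 in shLTBP1. The shSCR libraries lay within a narrow range and all 3 shLTBP1 libraries lay well under it. The means fell from 1734 ± 19.4 to 1064 ± 88.6 (SD, n = 3 each), to 61.4% of the control mean. On the log2 scale the fold change was -0.71 (standard error 0.07, limma adjusted p = 1.93e-05; 95% confidence interval -0.86 to -0.55). CLDN12 (ENSG00000157224) is annotated on the plus strand of chromosome 7 from 90383721 to 90513402. This span overlaps GTPBP10 and CDK14 on the same strand, which fell too, with log2 fold changes of -0.30 and -2.44 (limma adjusted p = 0.0028 and 3.79e-07). How reads were divided among the 3 genes is uncertain. The median over the neighbouring genes was 0.02.

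CLDN9, known for sealing the inner ear epithelium, rose. Its normalized counts were 398, 414 and 438 in shSCR and 626, 615 and 542 in shLTBP1, again without overlap. The means were 417 ± 20.2 and 594 ± 45.9 (SD, n = 3 each), and the log2 fold change was 0.51 (standard error 0.08, limma adjusted p = 0.000694). It was at 0.31 with GC content and length trends removed (limma adjusted p = 0.00513). CLDN9 (ENSG00000213937; 1 exon, plus strand of chromosome 16 from 3012456 to 3014505) lies 206 bases from CLDN6, an embryonic claudin that some carcinomas switch on again. CLDN6 was close to 0 in both groups, at 4.31, 2.54 and 0 in shSCR and 0.873, 4.29 and 6.66 in shLTBP1. It was below the minimum for testing. The span of CLDN6 overlaps TNFRSF12A on the other strand by 1627 bases, so its few counts are uncertain.

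CLDN7, a claudin of the lateral membrane that binds the adhesion molecule EPCAM, did not pass and overlapped between the groups. Its normalized counts were 10226, 10598 and 10396 in shSCR and 9792, 11098 and 10748 in shLTBP1. The means were 10407 ± 186 and 10546 ± 676 (SD, n = 3 each), with the shLTBP1 libraries more spread and on both sides of the controls. The log2 fold change was 0.02 (limma adjusted p = 0.798), with a 95% confidence interval that corresponds to a change between -6.62% and 9.69%. It was at -0.12 with GC content and length trends removed (limma adjusted p = 0.0517). CLDN7 (ENSG00000181885) lies on the minus strand of chromosome 17 from 7259903 to 7263983. A gene model on the same strand that overlaps it by 2187 bases, AC003688.1, is listed at 0 in every library.

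CLDN1, the claudin without which the skin barrier fails, was slightly higher in every shLTBP1 library but did not pass. Its normalized counts were 460.3, 467 and 444 in shSCR and 524, 488 and 528 in shLTBP1. The log2 fold change was 0.17 (standard error 0.07, limma adjusted p = 0.0868; 95% confidence interval -0.001 to 0.33). It passed with upper quartile scaling (0.19, limma adjusted p = 0.0495) and without a mean trend in the variances (0.17, limma adjusted p = 0.0464). CLDN1 (ENSG00000163347) lies on the minus strand of chromosome 3 from 190305701 to 190322475, where the neighbouring tested genes were higher as a group, with a median log2 fold change of 0.54. With that median subtracted CLDN1 was at -0.37 (limma adjusted p = 0.00257), so its direction depends on whether it is read against the library or against its region. CLDN16, a claudin of the kidney whose gene is next to CLDN1, was below the minimum for testing, with 11.6, 5.85 and 6.52 in shSCR and 6.02, 0.896 and 3.76 in shLTBP1.

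CLDN15 and CLDN2 form channels for cations in the gut. CLDN15 had normalized counts of 114, 104.3 and 102 in shSCR and 88.2, 78.8 and 96.6 in shLTBP1. The groups did not overlap, but the difference did not pass (log2 fold change -0.28, standard error 0.14, limma adjusted p = 0.127). It passed with GC content and length trends removed (-0.43, limma adjusted p = 0.0369), once the neighbours' median was taken off (-0.40, limma adjusted p = 0.0424) and without a mean trend in the variances (-0.28, limma adjusted p = 0.0444). CLDN2 is listed at 0 in 4 libraries and was at 2.6 in shSCR replicate 3 and 0.918 in shLTBP1 replicate 3. CLDN18, the claudin of the stomach lining, is listed at 0 in all 6 libraries. In all, 6 of the 7 tested claudins had groups that did not overlap, 3 higher and 3 lower in shLTBP1, where 60.8% of all tested genes did not overlap (30.2% higher and 30.6% lower).

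**Figure D2:**
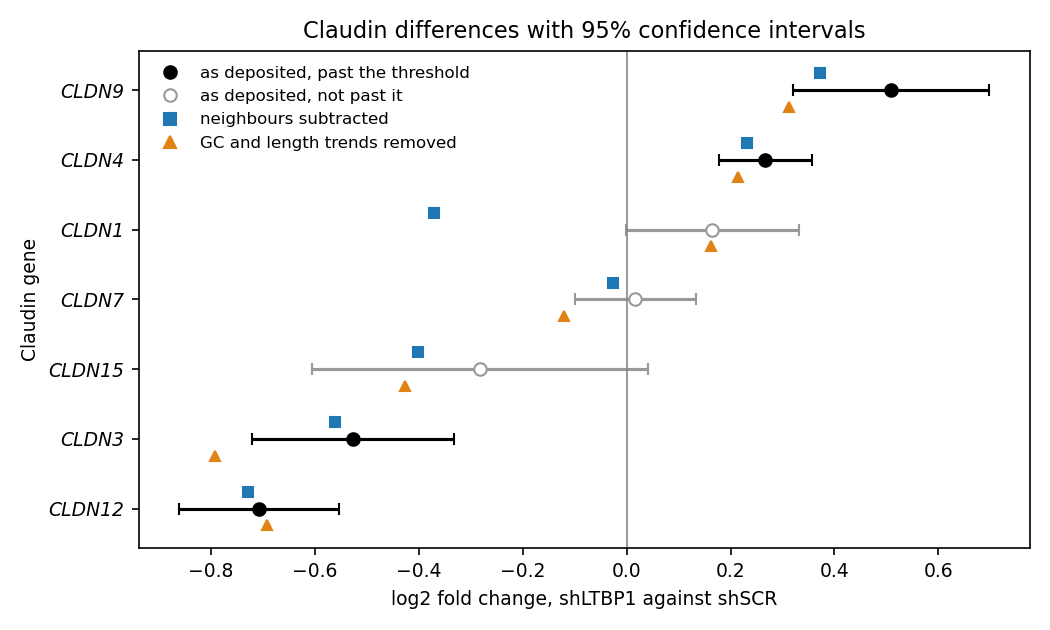
Log2 fold change of shLTBP1 against shSCR for the 7 tested claudins; circles are the fitted values with 95% confidence intervals (filled where the adjusted p passed 0.05), squares the values with the median of neighbouring genes subtracted, and triangles those with GC content and length trends removed. CLDN1 moves from 0.17 to -0.37 when its neighbours are subtracted, and CLDN3 from -0.53 to -0.79 when GC content and length trends are removed.

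Per kilobase of the longest protein-coding transcript, which allows a rough comparison of levels between genes, the family was carried by CLDN7 and CLDN4. By the mean over all 6 libraries, these genes stood at the 97.7 and 97.1 percentiles of tested genes. In shSCR the level per kilobase was 5412 ± 96.9 for CLDN7 and 4035 ± 119 for CLDN4 (SD, n = 3 each). The next were CLDN12 at 486.5 ± 5.43, CLDN3 at 435 ± 18.6, CLDN9 at 203 ± 9.86, CLDN1 at 131 ± 3.49 and CLDN15 at 50.1 ± 2.99. Each neighbour in this order differed by more than the spread of its libraries. The order of CLDN7 and CLDN4 rests on the lengths used for both. For CLDN4 it was 4163 bases, with 4108 as the median of its protein-coding transcripts. For CLDN7 it was 1923 bases, with 743 as the median. These lengths come from GENCODE, where the span of CLDN4 begins upstream of the RefSeq start. The RefSeq window of CLDN4 ends at 73830995 and its GENCODE span at 73832693. A transcript from the RefSeq start would thus be far shorter than 4163 bases. Its use would raise the level and share of CLDN4. The order of CLDN4 and CLDN7 was not tested with that length.

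With the longest protein-coding transcripts the middle of the order closed up in shLTBP1. CLDN3, CLDN12 and CLDN9 had levels per kilobase of 302 ± 25.7, 299 ± 24.9 and 289.95 ± 22.4 (SD, n = 3 each), which did not differ beyond their spread. This rests on the transcript chosen for CLDN12: with the median length of its protein-coding transcripts CLDN12 was at 1534 ± 17.1 in shSCR and 941 ± 78.4 in shLTBP1, far above CLDN3 and CLDN9, whose values are the same with either length. CLDN1 followed at 147 ± 6.36 and CLDN15 at 41.2 ± 4.17. In count terms, the ratio of CLDN9 to CLDN12 was 0.232, 0.236 and 0.253 in shSCR and 0.556, 0.639 and 0.491 in shLTBP1. An exact two-sided permutation test gave p = 0.1, the smallest possible. Every shLTBP1 library was above every shSCR library for CLDN9 and below for CLDN12, so that p was fixed by the choice of the pair. The ratio of CLDN4 to CLDN7 was 1.69, 1.54 and 1.61 in shSCR and 2.05, 1.81 and 1.9 in shLTBP1 (exact two-sided permutation p = 0.1). These pairs too were chosen after the values were seen, and each p was 0.1 after Benjamini-Hochberg adjustment over the 3 ratios.

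The shares of all claudin RNA per kilobase depend likewise on the lengths used for CLDN4 and CLDN7. CLDN4 made up 37.4% ± 1.08 in shSCR and 42.4% ± 1.15 in shLTBP1 (SD, n = 3 each). The share of CLDN7 was 50.2% ± 0.943 and 47.8% ± 1.6, and that of CLDN12 4.51% ± 0.0551 and 2.61% ± 0.283. CLDN1, CLDN3, CLDN9, CLDN12 and CLDN15 together were at 1281, 1309 and 1329.6 per kilobase in shSCR and 1114, 1076 and 1048 in shLTBP1. All claudins together were at 10788, 10771 and 10799 in shSCR and 11053, 11726 and 11597 in shLTBP1. With the median length of the protein-coding transcripts, CLDN7 held 68.3% in shSCR and 67.9% in shLTBP1 and CLDN4 19.9% and 23.6%. The length of CLDN7 then went from 1923 to 743 bases, while that of CLDN4 went only from 4163 to 4108. With the median lengths the sums of all claudins overlapped between the groups (20360 to 20665 and 19910 to 21559).

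**Figure D3:**
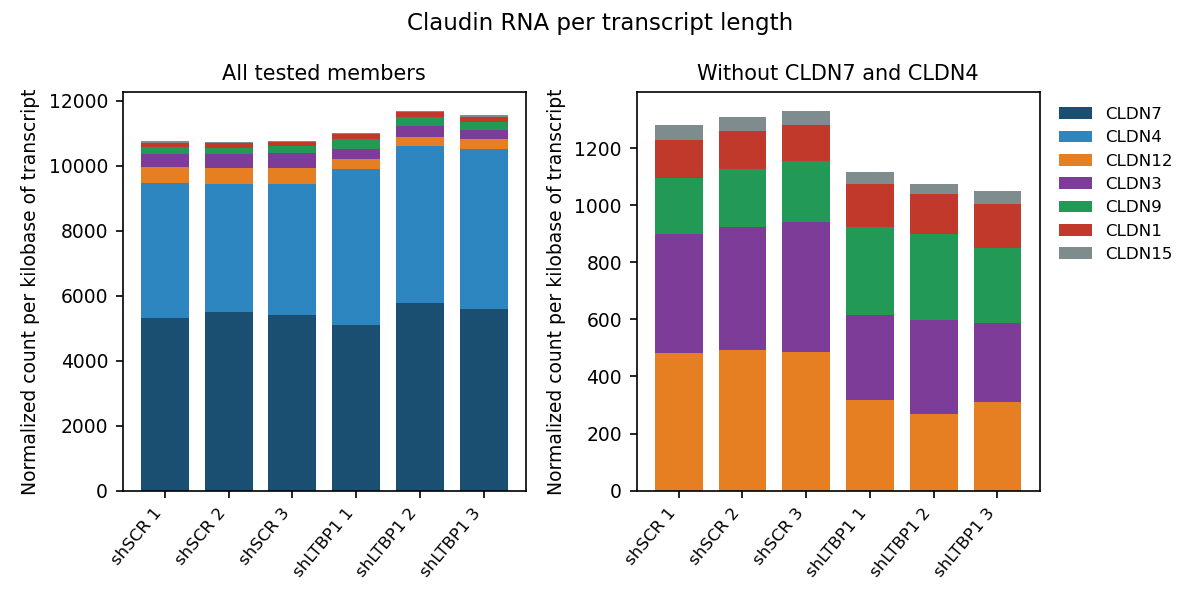
Level per kilobase of the longest protein-coding transcript for each library, stacked over the 7 tested claudins (left) and over 5 of them without CLDN7 and CLDN4 (right, with its own axis). In shLTBP1 the stack of the 5 less abundant claudins is lower, at 1048 to 1114 against 1281 to 1329.6 in shSCR.

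The 14 other claudins of the table added little. CLDN8 and CLDN23 had a mean of at least 10, and neither passed in the fit used here. CLDN8, a barrier claudin of kidney and colon, was at 8.61, 7.53 and 8.28 in shSCR and 11.6, 14.1 and 15.9 in shLTBP1, with a log2 fold change of 0.69 and a standard error of 0.38 (limma adjusted p = 0.146). It passed without a mean trend in the variances (limma adjusted p = 0.00459). CLDN23 was at 49.8, 53.7 and 47.8 in shSCR and 49.4, 68.6 and 64.6 in shLTBP1, the log2 fold change being 0.26 (limma adjusted p = 0.292). Of the 12 below the minimum, 7 are listed at 0 in every library, and the highest value was the 11.6 of CLDN16 in shSCR replicate 1.

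Claudins are held in the junction by scaffolds and sit beside other membrane proteins, and 33 such genes were listed. Of these, 28 were tested: 5 rose, 8 fell and 15 did not pass, so 46.4% were called, where 53.1% of all tested genes were. The median log2 fold change was -0.11. The scaffold TJP1 (ZO-1), which binds claudin tails, had normalized counts of 15419, 13978 and 15006 in shSCR and 11177, 9849.6 and 11270.2 in shLTBP1. The groups did not overlap, and the log2 fold change was -0.46 (limma adjusted p = 0.000156). It was at -0.29 with GC content and length trends removed (limma adjusted p = 0.000521). TJP3 (ZO-3) did not pass, at 1012 ± 25.0 and 1112 ± 27.3 (log2 fold change 0.14, limma adjusted p = 0.0698). It passed with upper quartile scaling (0.16, limma adjusted p = 0.0375) and was at -0.03 with GC content and length trends removed (limma adjusted p = 0.63).

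The cingulins link the junction plaque to actin and microtubules, and both fell. Cingulin (CGN) had normalized counts of 2085, 2028 and 2119 in shSCR and 672, 694 and 799 in shLTBP1, the largest fall of the list (log2 fold change -1.53, limma adjusted p = 2.09e-07). CGNL1 fell by 0.72 on the log2 scale (limma adjusted p = 0.000341). Occludin (OCLN), the first strand protein found, was at 4871 ± 434 and 4340.2 ± 356 (SD, n = 3 each) and did not pass (log2 fold change -0.17, limma adjusted p = 0.097). With single libraries left out it ran from -0.10 (without shLTBP1 replicate 1, limma adjusted p = 0.312) to -0.24 (without shSCR replicate 3), where it passed (limma adjusted p = 0.032). OCLN was at -0.03 once the trends of GC content and transcript length were taken off (limma adjusted p = 0.779). The largest rise was that of ILDR1, an angulin of tricellular corners, from 19.1, 16.1 and 20.0 to 45.0, 62.3 and 43.8 (log2 fold change 1.39, limma adjusted p = 0.00116). The angiomotins AMOT and AMOTL1, adaptors of the junction and of Hippo signalling, had log2 fold changes of 0.78 and -0.72 (limma adjusted p = 4.51e-06 and 3.8e-06). The 5 members below the minimum were JAM2, JAM3, BVES, MAGI2 and MPDZ, named after their values were seen.

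Of 35 listed regulators and binding partners of claudins, 27 were tested: 8 rose, 9 fell and 10 did not pass, so 63.0% were called, beside 53.1% of all tested genes. The median log2 fold change was -0.04. EPCAM, which binds CLDN7 and CLDN1 and protects them from degradation, had normalized counts of 21565, 22703 and 20770.2 in shSCR and 9752, 10516 and 9673 in shLTBP1. Its groups were far apart, the log2 fold change being -1.12 (limma adjusted p = 1.39e-07). EPCAM lies on chromosome 2, where its neighbours had a median of -0.54, and was at -0.58 with that subtracted.

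Transcription factors of epithelial and gut identity were the genes of that list that rose most. CDX2, an intestinal factor that can activate CLDN2, had normalized counts of 1406, 1459.6 and 1266 in shSCR and 2692, 2930.4 and 2408 in shLTBP1 (log2 fold change 0.96, limma adjusted p = 7.73e-06), while CLDN2 itself stayed near 0 in both groups. ELF3, an epithelial ETS factor, and KLF4, a Krüppel-like factor of surface epithelium, rose by 0.93 and 0.84 on the log2 scale (limma adjusted p = 3.87e-07 and 8.85e-07). Besides EPCAM, the largest falls were in STK39, a kinase downstream of the WNK kinases, and TFCP2L1, a grainyhead-related factor, with log2 fold changes of -1.29 and -0.91; both are chromosome 2 genes, and their values less the neighbours' median were -0.77 and -0.36. HNF4A was at 15.1 ± 7.49 and 11.8 ± 1.82 and did not pass (limma adjusted p = 0.727). Of the repressors of claudin genes in mesenchymal transition, named after their values were seen, SNAI1 was at 389 ± 21.6 and 391 ± 21.5 (log2 fold change 0.01, limma adjusted p = 0.937), and SNAI2, ZEB1, ZEB2 and TWIST1 were below the minimum for testing.

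**Figure D4:**
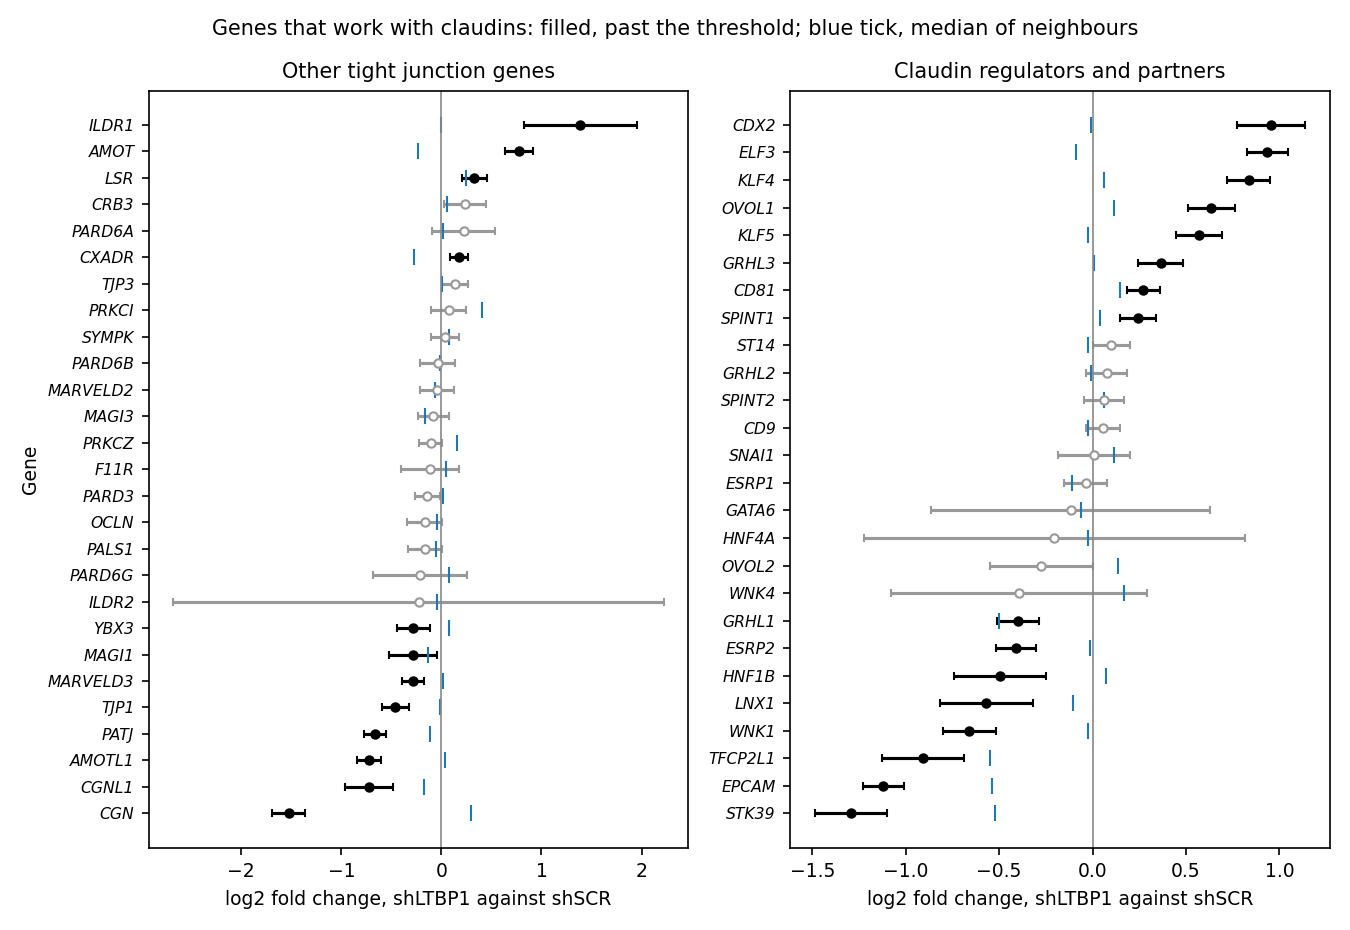
Log2 fold change of shLTBP1 against shSCR, with 95% confidence intervals, for 27 tested genes of the tight junction list (left) and 26 tested regulators and partners (right); filled circles passed the adjusted p of 0.05 and blue ticks are the medians of neighbouring genes. CGN (-1.53) and STK39 (-1.29) are the lowest of their lists, ILDR1 (1.39) and CDX2 (0.96) the highest.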

How the data were processed

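Total RNA of MKN28 cells was sequenced in 3 shSCR and 3 shLTBP1 libraries, made with a directional kit per the labels. Titles of the samples gave group and replicate number. The submitters' processing notes name FastQC 0.10.1, STAR 2.7.3a, RSEM 1.3.1, DESeq2 and the build hg38. For annotation and strand setting, the sources used here give nothing. Each gene has a deposited signal per library, a count made comparable between libraries by the authors with DESeq2, as the table's name says. Low values came out as whole reads, within 0.1 of a read, in 35.5% to 37.4% of cases, so no count test was run and depth is unknown.

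From these values log2(value + 1) was fitted with limma 3.58.1 (R 4.3.3), group as the only term, for 12789 genes with a mean of at least 10. Variances were moderated with a mean trend and two-sided p-values adjusted over all of them. The added 1 shrinks the fold changes of low genes. The fit was run on simulated data, whose changes were larger than those of the claudins and in far fewer genes than were called here. Positions and lengths are from GENCODE 29 (GRCh38; 19872 identifiers matched), promoters from RefSeq.

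The members and lists were chosen with earlier results of these data known. Named genes are LTBP1, all members, other claudins with a mean of at least 10, TJP1, TJP3, CGN, OCLN, EPCAM, CDX2, HNF4A, and the 3 largest rises and 3 largest falls called in each list; some genes that the rule takes are not reported here, though the counts include them. The alternatives are given in the closing section.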

Additional observations from a re-analysis of the deposited data

How the results depend on the processing

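CLDN3, CLDN4, CLDN9 and CLDN12 kept their direction and their call under all 18 alternatives run: pseudocounts of 0.5 and 5, no filter or a minimum mean of 50, upper quartile scaling, quantile normalization, other variance moderation, the replicate block, GC content and length trends removed, neighbours subtracted, and each library left out. Their log2 fold changes ran from -0.79 to -0.47, 0.21 to 0.30, 0.31 to 0.57 and -0.75 to -0.64. With the median of neighbouring genes subtracted, 4 claudins and not 2 were called lower, CLDN1 at -0.37 and CLDN15 having joined, and 3 and not 5 tight junction genes were called higher. That setting also turned PRKCI to -0.33 and GRHL1 to 0.10. The angulin LSR lost its call there, and MAGI1, at an adjusted p of 0.045 in limma, lost its call under 11 alternatives. The cause was not tested. With libraries left out in turn, 2 claudins were called in each direction every time. Replicate numbers have no stated shared origin, and deviations of same-numbered libraries from their group means correlated at -0.009, 0.058 and -0.001, so that not every library was closest to its own number. The replicate block called 6755 genes against 6788, and changed no claudin call. The replicate block with GC content and length trends removed put CLDN7 at -0.12 (limma adjusted p = 0.0466). Transcript length choice moved shares per kilobase, as given above. Depth could not be read from these values, so no detection limit is given for claudins listed at 0.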
